A study of Mus with 6 samples.

Results

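Brain gene expression of mice that received SCOP was compared with that of Control mice that received saline. The comparison rests on 4 of the 6 arrays of the study, 2 of SCOP and 2 of Control, which were taken by their labels, and on 19505 genes that have a probe set with a single gene symbol. According to the labels and the methods, SCOP mice were injected intraperitoneally at 2 mg/kg. Control mice had saline by the intragastric route with no injection, so that the compound and the injection cannot be told apart. The methods start the injections partway through a course of daily intragastric dosing, and do not list such dosing for the SCOP mice. The remaining arrays, CK2, came from mice given CK at 40 mg/kg by the intragastric route together with SCOP at 2 mg/kg, and entered only the estimate of the spread. All animals were ICR mice, an outbred stock, so unrelated animals also differ genetically. No transgene or deletion was involved, and no source used here states the age of the mice. The labels name the compound scopoletin hydrobromide, whereas the muscarinic antagonist used to impair memory in rodents is scopolamine hydrobromide. Which of these compounds was given is not settled by the sources used here, and it is called SCOP throughout. Before the brains were taken, the mice went through behavioural tests, one of them a passive avoidance task with foot shocks. Both arrays of a group are labelled as biological replicates without saying if each was a single mouse or a pool, so p-values measure only the spread between these samples.

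Muscarinic receptors are G protein-coupled receptors for acetylcholine, and they shape the excitability of neurons in cortex, hippocampus and striatum. Blocking them disturbs the forming of new memories. Active neurons switch on immediate early genes within minutes, among them transcription factors such as Fos and Egr1 and effectors such as Arc. These genes therefore serve as a readout of recent neuronal activity. They also respond to stress, handling and learning.

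The values are log2 levels made by robust multi-array averaging (RMA), in which a difference of 1 is a 2-fold difference. The brain origin of the samples was checked with 6 markers. Snap25 of neurons, Slc17a7 of excitatory neurons, Gad1 of inhibitory neurons, Mbp of oligodendrocytes and Aqp4 of astrocytes lay above the background on 6 of 6 arrays, and Cx3cr1 of microglia on 5 of 6. Background here means the level that 95% of an array's negative controls stayed below, which was 4.98 to 5.55, and 9466 genes lay below it on every array and are called dim. SCOP replicate 2 differed from all other arrays. Across genes it correlated with them at 0.965 to 0.969, and the other 5 arrays among themselves at 0.990 to 0.993. Its background control probe sets rich in G and C (at least 16 bases) had a mean of 6.10, against 4.99 to 5.19 on the other 5 arrays. For this reason each SCOP array was set against the Control mean by itself beside the fit to all arrays.

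In limma, a linear model with a moderated spread, 0 of the 19505 genes (0%) differed between SCOP and Control at an adjusted p under 0.05. The smallest adjusted p was 0.864. At an unadjusted p under 0.05, SCOP was higher for 439 genes (2.25%) and lower for 207 genes (1.06%). The share with higher values was 68.0% as deposited, 55.1% with quantile normalization, 51.8% with cyclic loess and 50.9% with array medians centred, so the balance of the directions depended on the scaling. The methods' t-test gave 324 genes as higher and 228 as lower at an unadjusted p under 0.05 and 0 after Benjamini-Hochberg adjustment. With 2 arrays against 2 an exact permutation test cannot give a p below 0.333.

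The SCOP arrays shared few large differences. At least 2-fold from the Control mean were 31 genes on SCOP replicate 1 and 1271 genes on SCOP replicate 2, and 6 of them were so on both arrays in the same direction. At 1.5-fold the numbers were 536 and 5189, of which 126 lay in the same direction on both arrays and 47 in opposite directions. Over all 19505 genes the 2 arrays had the same sign for 9915 (50.8%). Genes were therefore described by a stricter rule of size. Both SCOP arrays had to lie beyond both Control arrays and at least 1.5-fold from the Control mean, and the group with the higher level had to lie above the background on both of its arrays. By this rule 6 genes (0.0308%) were higher and 13 genes (0.0666%) were lower in SCOP. Without the 1.5-fold and background conditions, 2916 genes (15%) were higher and 2586 genes (13.3%) lower on both SCOP arrays than on both Control arrays. With array medians centred 2 genes were higher and 20 lower by the 1.5-fold rule, and 40.9% of the genes without overlap were higher, against 53.0% as deposited. Leaving out an array makes the rule easier to meet. Without SCOP replicate 1 there were 640 higher and 2334 lower genes, and without SCOP replicate 2 there were 103 and 19. They were 36 and 30 without Control replicate 1, and 18 and 27 without Control replicate 2.

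**Figure D1:**
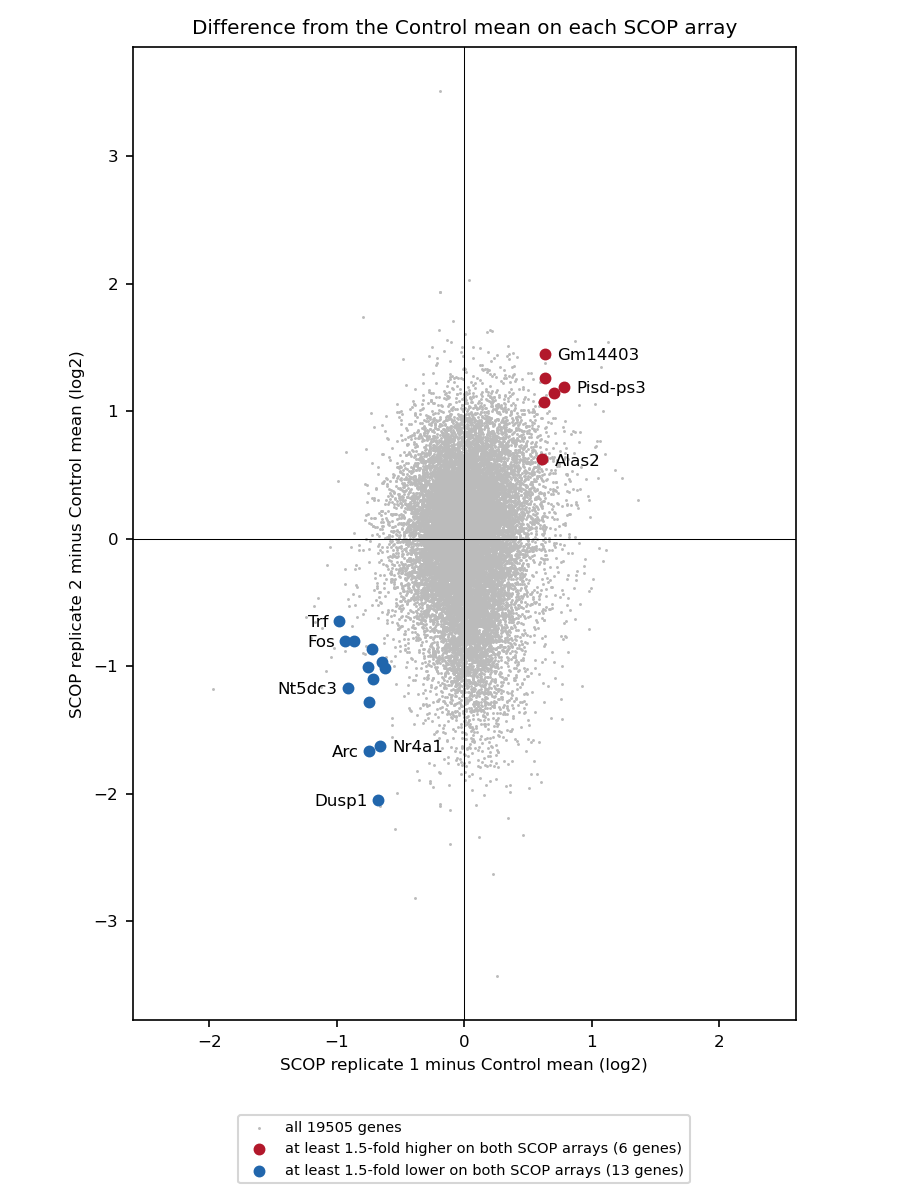
Each point is a gene, placed by its log2 difference from the Control mean on SCOP replicate 1 (horizontal axis) and on SCOP replicate 2 (vertical axis). Red points are the 6 genes at least 1.5-fold higher and blue points the 13 genes at least 1.5-fold lower on both arrays, and the cloud of 19505 genes is spread far more along the axis of SCOP replicate 2.

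Of the 13 genes lower on both SCOP arrays, 6 were immediate early genes, namely Fos, Egr2, Arc, Nr4a1, Dusp1 and Ccn1, and 2 were oligodendrocyte genes, Trf and Cldn11. Fos, the transcription factor that forms AP-1 with Jun proteins, had levels of 4.999 and 5.13 on the SCOP arrays, against 5.91 and 5.96 on the Control arrays. The SCOP arrays lay close together, well below both Control arrays, and the log2 change was -0.87 (standard error 0.19, unadjusted p of 0.00201 and adjusted p of 0.864 in limma). Egr2, a zinc finger transcription factor induced by neuronal activity, had 5.81 and 5.87 in SCOP, against 6.69 and 6.65 in Control. Its log2 change was -0.83 (standard error 0.20, unadjusted p of 0.00316 in limma), and for both genes the replicates of a group differed by far less than the groups did. The log2 change of Fos was -0.93 on SCOP replicate 1 alone and -0.80 on SCOP replicate 2 alone. That of Egr2 lay between -0.86 and -0.80 when any array was left out. The rule asks for 1.5-fold on each SCOP array, so by selection neither change could rest on a single SCOP array.

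Arc, which localises to synapses and controls AMPA receptor uptake, had levels of 6.19 and 5.27 in SCOP, against 6.77 and 7.10 in Control. Nr4a1, an orphan nuclear receptor induced by activity, had 6.64 and 5.67 in SCOP, against 7.21 and 7.39 in Control. Dusp1, a phosphatase that switches off MAP kinases, had 8.04 and 6.66 in SCOP, against 8.69 and 8.73 in Control. For these 3 genes both SCOP arrays lay below both Control arrays, and SCOP replicate 2 was the lowest of the 4. Their log2 changes were -1.20 (standard error 0.33), -1.14 (standard error 0.31) and -1.36 (standard error 0.40), with an adjusted p of 0.864 in limma for each. Without SCOP replicate 2 these changes were -0.74 for Arc, -0.66 for Nr4a1 and -0.67 for Dusp1, and without SCOP replicate 1 they were -1.66, -1.62 and -2.05. Ccn1, a secreted matrix protein induced by growth factors, had 5.65 and 5.51 in SCOP, against 6.29 and 6.45 in Control. Its SCOP arrays lay close together, and the change was -0.79 (standard error 0.20, unadjusted p of 0.00377 in limma).

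The remaining genes lower by the rule belonged to neither group. Nt5dc3, a protein with a 5'-nucleotidase domain, had 6.98 and 6.72 in SCOP, against 7.99 and 7.79 in Control. With a log2 change of -1.04 (standard error 0.21, unadjusted p of 0.00118 in limma) it had the largest difference shared by both SCOP arrays among the genes that met the 1.5-fold rule. A2ml1, a protease inhibitor related to alpha-2-macroglobulin, had 6.56 and 6.17 in SCOP, against 7.38 and 7.17 in Control. Ecel1, a membrane protease of neurons, had 6.36 and 6.04 in SCOP, against 7.02 and 6.99 in Control. In both genes the groups were well separated. Tmem267, a membrane protein, had 6.13 and 5.60 in SCOP, against 6.96 and 6.81 in Control. Retsat, which saturates retinol, had 5.03 and 4.78 in SCOP, against 5.19 and 6.38 in Control, so that the Control arrays differed from each other by more than SCOP replicate 1 differed from Control replicate 1. Its log2 change was -0.88 with a standard error of 0.53, and it was -0.29 without Control replicate 2.

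Among the 6 genes higher on both SCOP arrays, 4 have established names. Pisd-ps3, a pseudogene of the enzyme that makes phosphatidylethanolamine, had 6.16 and 6.57 in SCOP, against 5.50 and 5.27 in Control, with a log2 change of 0.99 (standard error 0.23, unadjusted p of 0.00248 in limma). Its sequence has close copies, and signal from these may be shared. Stk17b, a kinase of the death-associated protein kinase family, had 6.14 and 6.58 in SCOP, against 5.61 and 5.26 in Control. Ifit3b, an interferon-induced gene, had 5.11 and 5.74 in SCOP, against 4.67 and 4.27 in Control, where it lay below the background. In these 3 genes SCOP replicate 2 was the higher SCOP array, and no array of the groups overlapped. Alas2, which makes the first step of heme synthesis in red cell precursors, had 6.03 and 6.04 in SCOP, against 5.93 and 4.91 in Control. Control replicate 1 lay just below both SCOP arrays, and without Control replicate 2 the log2 change of 0.62 was 0.11. The other two, Gm14403 and Gm3500, are predicted genes, and they were named after their values were seen. Gm14403 had 8.70 and 9.51 in SCOP, against 7.93 and 8.20 in Control. Gm3500 had 5.57 and 6.02 in SCOP, against 4.80 and 5.09 in Control.

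**Figure D2:**
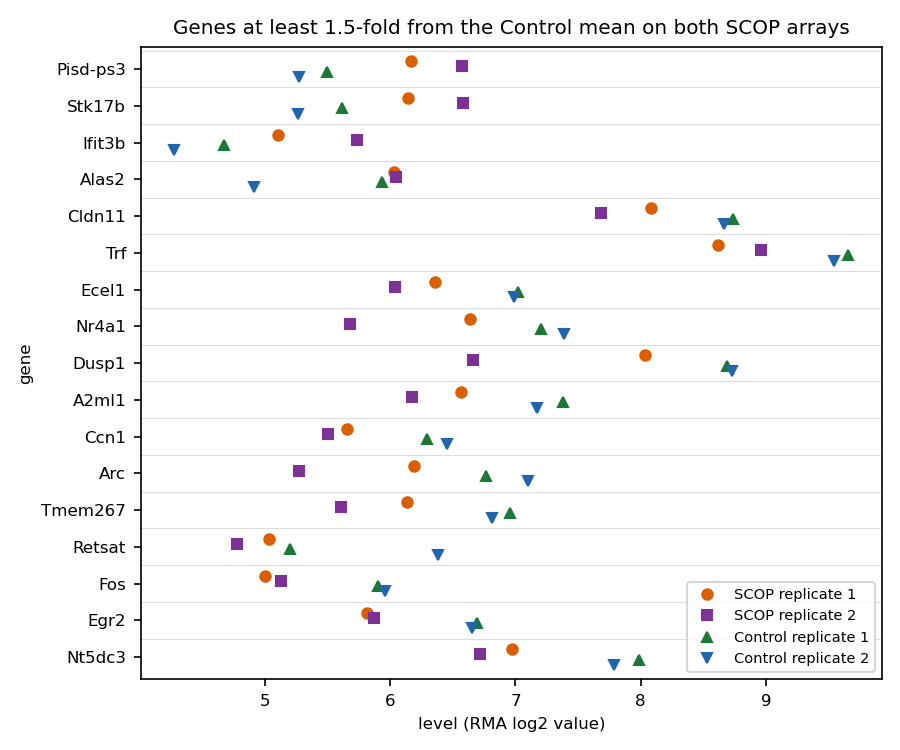
Levels (RMA log2 values) of the 4 named genes higher and the 13 genes lower on both SCOP arrays, with 1 symbol per array for SCOP replicates 1 and 2 and Control replicates 1 and 2. Fos and Egr2 show SCOP replicates close together, Dusp1 and Arc show SCOP replicate 2 far below SCOP replicate 1, and for Retsat and Alas2 the Control replicates lie far apart.

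Just inside the 1.5-fold rule were Alas2 among the higher genes, with a smaller difference on SCOP replicate 1 of 0.61 on the log2 scale, and Cldn11 among the lower genes with -0.62. Just outside it were Ormdl1, Gramd3 and Esco1 with smaller differences of 0.58, 0.57 and 0.55, and Mthfd1, Nr4a3 and C1qc with -0.58, -0.57 and -0.57. At a rule of 1.3-fold, 64 genes (0.328%) were higher and 59 genes (0.302%) were lower on both SCOP arrays.

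Of 52 immediate early genes listed, 51 were measured. Both SCOP arrays lay below both Control arrays for 27 of them (52.9%), against 13.3% of all genes, and above both for 4 of them (7.84%), against 15% of all genes. At an unadjusted p under 0.05 in limma, SCOP was lower for 16 members (against 1.06% of all genes) and higher for 0 (against 2.25%), and none passed an adjusted p under 0.05. Their median log2 change was -0.40, against 0.00 over all genes, and it was -0.18 on SCOP replicate 1 alone and -0.57 on SCOP replicate 2 alone. The list was chosen with results of these arrays known, so its counts are a description and not independent evidence of its direction. Of the 51 members, 13 were dim on every array. The mean level of the list was 5.63 and 5.23 on the SCOP arrays, against 5.87 and 5.90 on the Control arrays, and it was 5.81 and 5.88 in CK2, whose mice also received SCOP.

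At 1.3-fold 12 members were lower on both SCOP arrays (against 0.302% of all genes) and none was higher (against 0.328%). Besides the 6 named above these were Fosb, Junb, Egr1, Nr4a3, Btg2 and Pcsk1. Junb, a partner of Fos in AP-1, had 5.97 and 6.18 in SCOP, against 6.59 and 6.81 in Control. Fosb, a Fos relative, had 4.85 and 4.47 in SCOP, against 5.54 and 5.15 in Control, near the background. Egr1, a zinc finger factor needed for lasting memory, had 9.09 and 7.62 in SCOP, against 9.54 and 9.69 in Control. The difference of Egr1 was therefore moderate on SCOP replicate 1 and large on SCOP replicate 2, and its log2 change of -1.26 was -0.53 without SCOP replicate 2. Nr4a3 had 7.52 and 6.63 in SCOP, against 8.19 and 7.997 in Control. Btg2, an antiproliferative factor, had 5.04 and 4.61 in SCOP, against 5.41 and 5.58 in Control. Pcsk1, a protease that processes neuropeptide precursors, had 4.93 and 4.65 in SCOP, against 5.25 and 5.44 in Control, and in both genes SCOP lay below Control by more than the replicates of a group differed.

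Npas4, a transcription factor that answers calcium entry, was dim on every array. It was 4.29 and 2.85 in SCOP, against 4.96 and 4.93 in Control, with a log2 change of -1.38 (standard error 0.41, unadjusted p of 0.0101 in limma). Ier2, a nuclear early response gene named after its values were seen, had 3.69 and 4.11 in SCOP, against 4.57 and 5.21 in Control. Both lay in the same direction as Fos on both SCOP arrays. Nr4a2, an orphan nuclear receptor, had 7.67 and 6.02 in SCOP, against 7.86 and 7.86 in Control, a small difference on SCOP replicate 1 and a large one on SCOP replicate 2. Other members were low on SCOP replicate 2 alone. Egr3 had 6.98 and 5.80 in SCOP, against 6.86 and 7.09 in Control, and Bdnf, a neurotrophin, had 5.91 and 4.79 in SCOP, against 5.49 and 6.08 in Control, so that SCOP replicate 1 lay between the Control arrays for both. The members with the most positive log2 changes were Ier3, Klf4 and Homer1. Homer1, a postsynaptic scaffold, had 8.47 and 9.12 in SCOP, against 8.55 and 8.50 in Control, so only SCOP replicate 2 was higher. Ier3 had 5.03 and 5.33 in SCOP, against 4.84 and 4.66 in Control, and Klf4 was dim on every array.

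The count of immediate early genes below both Control arrays was 31 without SCOP replicate 2 (against 30.8% of all genes), 39 without SCOP replicate 1 (39.7%), 32 without Control replicate 1 (25.1%) and 33 without Control replicate 2 (28.1%), since fewer arrays overlap less often. It was 29 with quantile normalization (against 13.8% of all genes), 28 with cyclic loess (14.0%) and 30 with medians centred (16.2%). By their median, excitatory neuron markers were lower beside these genes on SCOP replicate 2 only. The median difference of 17 excitatory neuron genes from Control was 0.08 on SCOP replicate 1, with 4 members below 0, and -0.71 on SCOP replicate 2, with 17 members below 0. Their mean level was 7.66 and 6.75 in SCOP, against 7.58 and 7.59 in Control. Inhibitory neuron and neuropeptide genes had medians of -0.05 on SCOP replicate 1 and -0.51 on SCOP replicate 2, and thalamic neuron genes of -0.08 and -0.67. On SCOP replicate 1 the median was below 0 for the immediate early genes (-0.18), and less so for the inhibitory and thalamic neuron genes. That of the excitatory neuron genes was above 0. On SCOP replicate 2 all of these medians were below 0. The part of neuron content on SCOP replicate 2, and that of the avoidance test and handling, was not tested. In whole tissue, fewer cells of a type and less RNA per cell cannot be told apart.

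**Figure D3:**
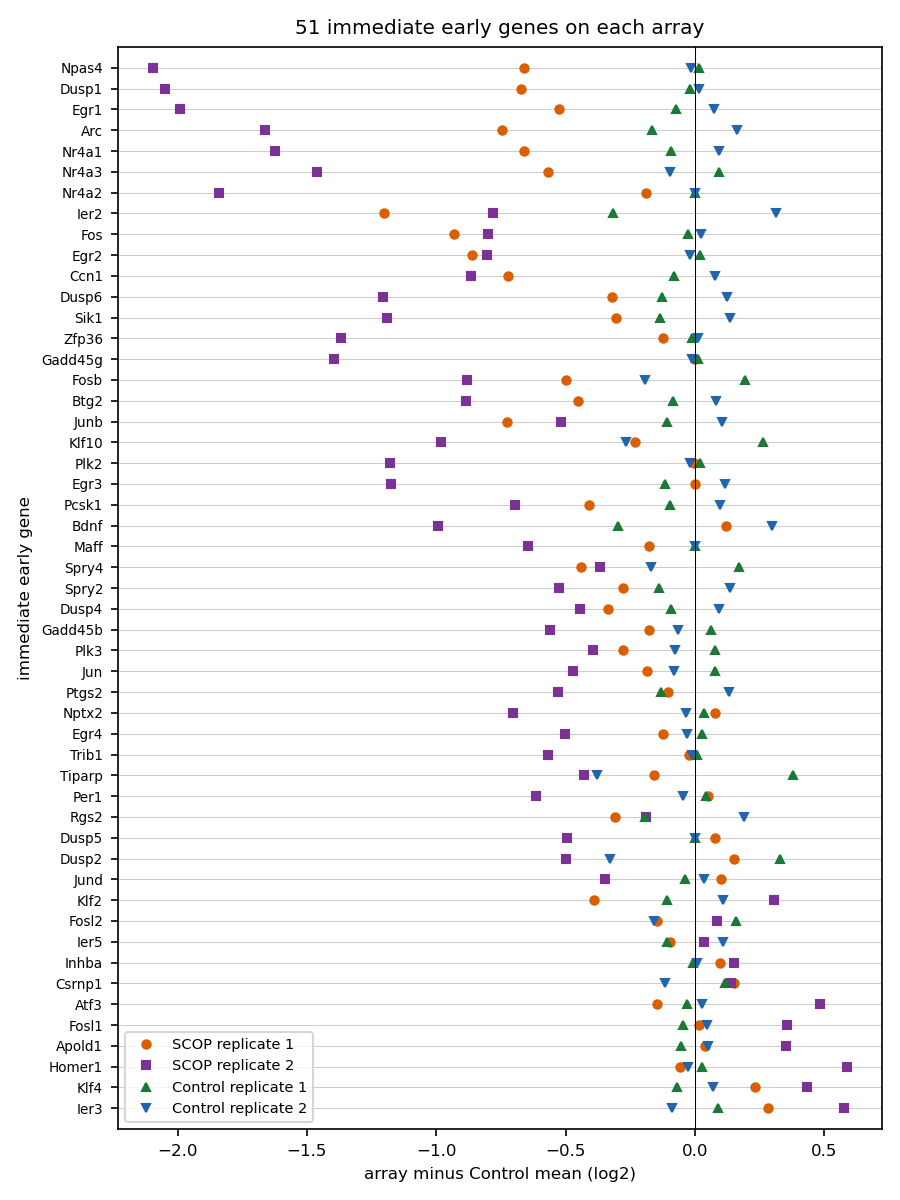
The 51 measured immediate early genes, ordered by their log2 change in SCOP against Control, with the difference of each of the 4 arrays from the Control mean on the horizontal axis (log2). Both SCOP symbols lie to the left of both Control symbols for 27 genes, and at the top of the plot SCOP replicate 2 lies far to the left of SCOP replicate 1.

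Oligodendrocyte genes were among the other groups with a negative median on both SCOP arrays. Of 20 measured, 9 lay below both Control arrays (45.0%, against 13.3% of all genes) and 0 above both (against 15%). With dim genes filtered out the count below both was also 9 (against 17.4% of the genes left). Their median log2 change was -0.35, and it was -0.16 on SCOP replicate 1, with 18 members below 0, and -0.59 on SCOP replicate 2, with 15 below 0. Trf, the iron carrier transferrin that oligodendrocytes make in brain, had 8.62 and 8.96 in SCOP, against 9.66 and 9.55 in Control. Cldn11, the tight junction protein of myelin, had 8.08 and 7.69 in SCOP, against 8.74 and 8.66 in Control. Their log2 changes were -0.81 (standard error 0.21, unadjusted p of 0.00459 in limma) and -0.82 (standard error 0.21, unadjusted p of 0.00502 in limma), and the lower SCOP array was replicate 1 for Trf and replicate 2 for Cldn11.

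The other 7 members below both Control arrays were Mag, Cnp, Mal, Myrf, Ugt8a, Fa2h and Sox10. Mal, a lipid raft protein of myelin, had 9.62 and 9.33 in SCOP, against 10.01 and 9.90 in Control. Fa2h, which makes the hydroxylated lipids of myelin, had 7.66 and 6.18 in SCOP, against 7.997 and 7.89 in Control. Mbp, myelin basic protein, did not share the direction. It had 11.27 and 11.50 in SCOP, against 11.31 and 11.36 in Control, and Mobp had 8.73 and 9.39 in SCOP, against 8.68 and 8.87 in Control. Opalin had 7.07 and 7.40 in SCOP, against 7.21 and 7.57 in Control, where the groups overlapped. The list's median was -0.23 with quantile normalization and -0.22 with cyclic loess. Without SCOP replicate 1 the count below both Control arrays was 14 (against 39.7% of all genes), and the mean level of the list was 7.64 and 7.41 in SCOP, against 7.83 and 7.89 in Control.

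A negative median on both SCOP arrays was not limited to a few lists. Astrocyte genes had -0.12 on SCOP replicate 1 and -0.15 on SCOP replicate 2. These values were -0.08 and -0.29 for Nrf2 pathway genes, and -0.10 and -0.12 for antioxidant enzymes. Genes of cholesterol synthesis and glucocorticoid-responsive genes also had negative medians on both SCOP arrays. Of 17 measured genes of cholesterol synthesis, 8 lay below both Control arrays (47.1%, against 13.3% of all genes) and 1 above both (against 15%), with a median change of -0.20 (-0.10 on SCOP replicate 1 and -0.30 on SCOP replicate 2). Sqle, squalene epoxidase, had 6.29 and 5.66 in SCOP, against 6.61 and 6.55 in Control. Sc5d, a late step of the pathway, had 8.88 and 8.89 in SCOP, against 9.16 and 9.18 in Control, a small difference with little spread. Of 22 glucocorticoid-responsive genes, 8 lay below both Control arrays (36.4%, against 13.3% of all genes) and 0 above both (against 15%), and 6 were dim on every array. Their median was -0.16 (-0.20 on SCOP replicate 1 and -0.15 on SCOP replicate 2). Sgk1, a kinase induced by corticosteroids, had 6.69 and 6.49 in SCOP, against 7.10 and 7.24 in Control, and Cdkn1a, a cell cycle inhibitor, had 5.44 and 4.52 in SCOP, against 5.88 and 5.85 in Control. Fkbp5, a standard marker of corticosteroid action, had 6.75 and 7.02 in SCOP, against 6.68 and 7.05 in Control, so its groups overlapped. The count of 8 was 5 with quantile normalization (against 13.8% of all genes) and 14 without SCOP replicate 1 (against 39.7% of all genes), and the count for cholesterol synthesis was also 14 without SCOP replicate 1. With dim genes filtered out the counts were 8 for cholesterol synthesis and 7 for glucocorticoid-responsive genes (against 17.4% of the genes left). Heat shock genes had no common direction. Of 13 measured, 5 lay below both Control arrays (38.5%, against 13.3% of all genes) and 1 above both (against 15%), and the median was 0.02 on SCOP replicate 1 and -0.13 on SCOP replicate 2. The median of the log2 change was -0.09 as deposited, 0.03 with quantile normalization and 0.07 with cyclic loess. Among the 5 was Dnajb1, a co-chaperone, with 6.71 and 6.56 in SCOP, against 7.28 and 7.19 in Control.

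Genes of antigen presentation and of the interferon response included members with higher values on both SCOP arrays, most of them dim. Of 25 measured MHC and antigen presentation genes, 17 were dim on every array, 11 lay above both Control arrays (44.0%, against 15% of all genes) and 3 below both (12%, against 13.3%). The median was 0.15 on SCOP replicate 1 and 0.13 on SCOP replicate 2. H2-K1, the classical class I molecule, was bright and had 7.67 and 7.37 in SCOP, against 6.72 and 7.0005 in Control. Its log2 change was 0.66 (standard error 0.22, unadjusted p of 0.0171 in limma). H2-T23 is a nonclassical class I molecule. It had 4.53 and 4.94 in SCOP, against 3.71 and 3.09 in Control, all below the background. B2m, the light chain that all class I molecules share, had 9.46 and 9.81 in SCOP, against 9.48 and 9.65 in Control, so its groups overlapped. H2-D1 had 7.03 and 6.03 in SCOP, against 6.15 and 6.71 in Control, with no common direction. MHC genes are highly variable, and ICR mice are outbred, so a difference in probe binding between haplotypes and a difference in expression cannot be told apart. The count of 11 was 6 with quantile normalization (against 13.7% of all genes) and 7 with cyclic loess (against 13.5%). It was 3 with dim genes filtered out (against 8.88% of the genes left), a filter that also took out the 17 dim members.

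Of 32 interferon-stimulated genes, 26 were dim on every array, 10 lay above both Control arrays (31.2%, against 15% of all genes) and 1 below both (against 13.3%). The median was 0.10 on SCOP replicate 1 and 0.19 on SCOP replicate 2. Ifit3 had 5.49 and 6.45 in SCOP, against 5.21 and 4.99 in Control. It is a near copy of Ifit3b, so signal may be shared between their probe sets. Gbp3, a guanylate-binding protein, had 4.53 and 4.52 in SCOP, against 3.89 and 3.50 in Control, and was dim. The standard markers Isg15 and Irf7 were dim too and had 2.61 and 3.04 for Isg15 in SCOP, against 2.66 and 2.78 in Control, and 3.10 and 3.27 for Irf7 in SCOP, against 3.05 and 3.13 in Control. Their groups overlapped. The list's median was 0.10 as deposited and 0.00 with quantile normalization and with cyclic loess, so its direction depended on the scaling. Its count of 10 was also 10 with quantile normalization and with cyclic loess, and 8 with array medians centred. With dim genes filtered out it was 2 (against 8.88% of the genes left), a filter that also took out the 26 dim members. The count was 18 without SCOP replicate 1 (against 41.5% of all genes) and 16 without Control replicate 2 (against 25.9% of all genes). Microglia and blood leukocyte genes did not share a direction between the SCOP arrays: the medians were 0.18 and 0.39 on SCOP replicate 2, but -0.09 and -0.16 on SCOP replicate 1. Of 18 measured microglia genes, Trem2 and Siglech lay above both Control arrays (11.1%, against 15% of all genes). C1qc and Ctss lay below both (11.1%, against 13.3%). C1qc, a complement subunit of microglia, had 5.11 and 5.02 in SCOP, against 5.35 and 6.00 in Control, and its log2 change of -0.61 was -0.29 without Control replicate 2.

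Several gene groups had a median clearly below Control on SCOP replicate 2 alone. Synaptic genes (29 measured) had a median difference of 0.03 on SCOP replicate 1 and -0.68 on SCOP replicate 2. For striatal neuron genes (17 measured) these values were 0.08 and -0.72, and for genes that process or clear the amyloid precursor (18 measured) 0.04 and -0.70. Some members were lower on both SCOP arrays. Below both Control arrays were 8 synaptic genes (27.6%), 5 striatal genes (29.4%) and 3 amyloid genes (16.7%), against 13.3% of all genes. Above both were 1, 0 and 0 (against 15%). Few members of these lists were dim on every array. With dim genes filtered out, 17.4% of the genes left lay below both and 8.88% above both. The amyloid share below both was therefore near that of genes in general. Syt1, the calcium sensor of transmitter release, had 11.31 and 10.48 in SCOP, against 11.45 and 11.34 in Control. Drd2, the dopamine receptor of the indirect pathway, had 6.57 and 4.96 in SCOP, against 6.40 and 6.43 in Control. App, the amyloid precursor, had 10.48 and 9.62 in SCOP, against 10.47 and 10.30 in Control. In all 3 genes SCOP replicate 2 was the lowest array, and for Drd2 and App SCOP replicate 1 was the highest.

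The muscarinic receptors themselves followed this split. The 5 receptor genes had a median difference of 0.09 on SCOP replicate 1 and -0.74 on SCOP replicate 2. Chrm1, the main receptor of cortex and hippocampus, had 7.61 and 5.88 in SCOP, against 7.68 and 7.49 in Control. Chrm4, a receptor of striatal neurons, had 6.45 and 5.01 in SCOP, against 6.55 and 6.63 in Control, and was the only receptor gene below both Control arrays on both SCOP arrays. Chrm2, the inhibitory receptor on cholinergic terminals, had 6.22 and 6.07 in SCOP, against 5.98 and 6.27 in Control. Ache, which breaks acetylcholine down, had 7.34 and 5.44 in SCOP, against 7.42 and 7.17 in Control, so it too was low on SCOP replicate 2.

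Other groups were higher on SCOP replicate 2 and lower on SCOP replicate 1. Of 60 cytosolic ribosomal protein genes, 52 lay below the Control mean on SCOP replicate 1, with a median of -0.14, and 57 lay above it on SCOP replicate 2, with a median of 0.47. The 79 genes of oxidative phosphorylation had medians of -0.08 and 0.23. The difference also went with the level of a gene. In 5 groups of 3901 genes by mean level, the medians from the dimmest to the brightest were -0.03, 0.03, 0.06, 0.01 and -0.01 on SCOP replicate 1, and 0.15, 0.21, 0.06, -0.19 and -0.29 on SCOP replicate 2. By these medians dim genes were higher and bright genes lower on SCOP replicate 2, beside its raised background controls. The bright ribosomal protein genes were an exception. The levels of this array also spread less, with an interquartile range of 3.19, against 3.57 to 3.70 on the other 5 arrays. On it 7263 genes lay above the background, against 9006 to 9568 on the others. The part of the raised background in the differences of this array was not tested.

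**Figure D4:**
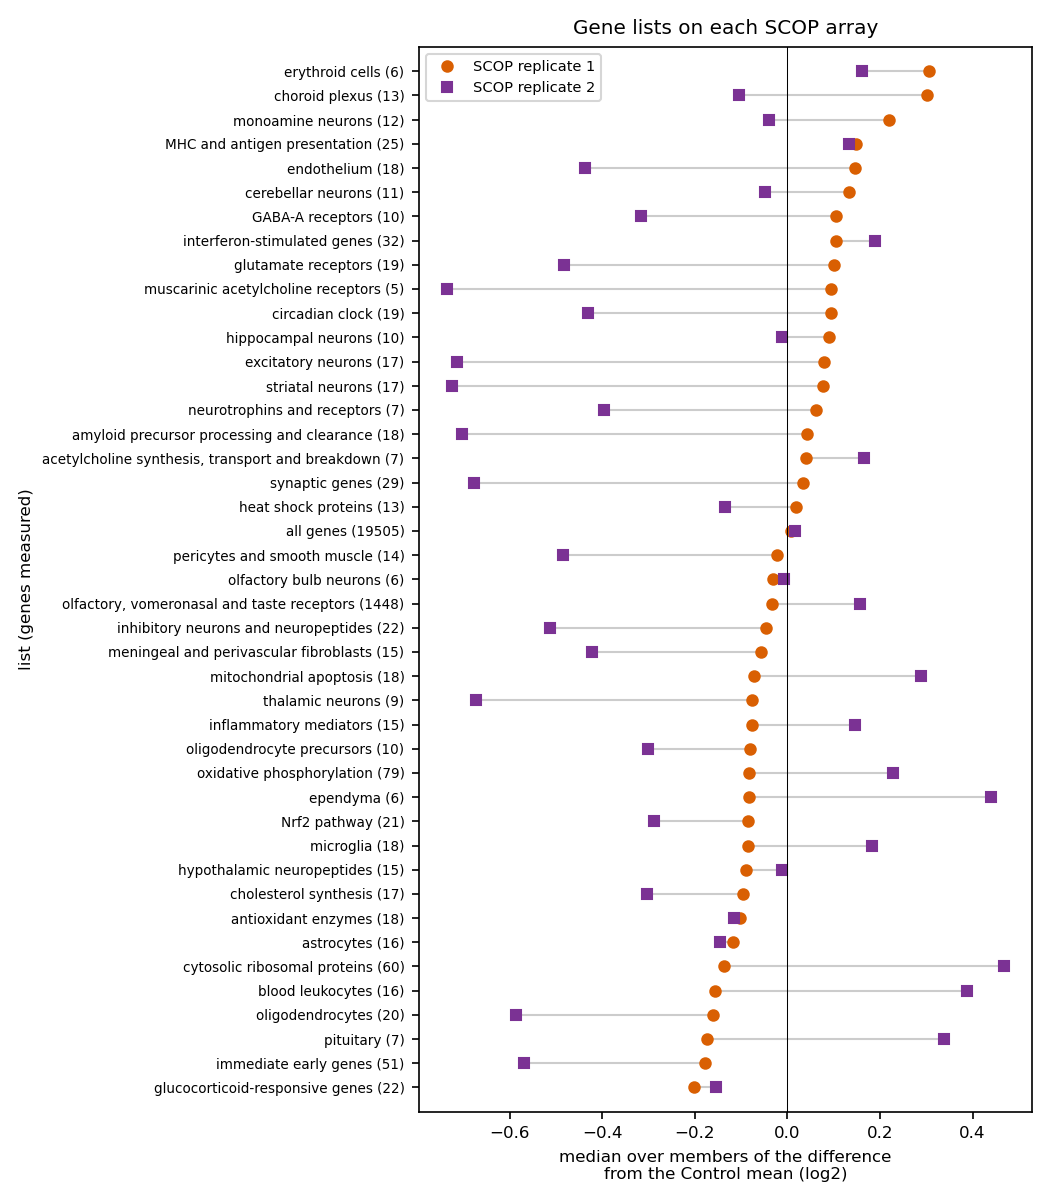
Median difference from the Control mean (log2, horizontal axis) of 42 gene lists and of all genes, on SCOP replicate 1 (circles) and SCOP replicate 2 (squares), ordered by SCOP replicate 1, with the number of genes measured. Immediate early genes, oligodendrocyte genes and glucocorticoid-responsive genes lie left of 0 on both arrays, whereas the excitatory, synaptic and striatal lists lie right of 0 on SCOP replicate 1 and far left on SCOP replicate 2.

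Single genes showed the same split. Cwc22, a splicing factor, had 4.50 and 8.19 in SCOP, against 4.72 and 4.65 in Control. Eng, a receptor of vessel endothelium, had 6.96 and 4.68 in SCOP, against 7.09 and 7.06 in Control. Ppdpf had 7.79 and 4.10 in SCOP, against 7.85 and 7.22 in Control. These were among the 10 genes with the largest differences on SCOP replicate 2 that lay within 1.2-fold of Control on SCOP replicate 1. The genes that stood out on SCOP replicate 1 alone lay near or below the background, with Ssu2 at 5.02 and 4.20 in SCOP, against 4.14 and 3.92 in Control, and Nsun3 at 4.54 and 3.34 in SCOP, against 3.50 and 3.35 in Control.

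Neighbouring genes of chromosome 2 lay above Control together. In RefSeq gene order, the longest run of measured genes with both SCOP arrays above both Control arrays held 19 genes, from Edn3 to Zfp931, while the next longest runs in either direction held 6. This run was found after the values were seen. Apart from Edn3 it holds 5 genes with zinc finger protein symbols and 13 predicted genes, and such zinc finger genes of mouse form families of closely similar copies, so signal may be shared between them. Zfp931 had 8.39 and 8.94 in SCOP, against 7.85 and 8.12 in Control, and Zfp971 had 9.21 and 9.57 in SCOP, against 8.76 and 8.78 in Control. Zfp970 had 7.86 and 7.76 in SCOP, against 7.34 and 7.24 in Control. The log2 changes over the run were 0.12 to 1.04, and 9 of the 19 genes were higher by 1.3-fold on both SCOP arrays. CK2 replicate 2 was the lowest of the 6 arrays for 17 of the 19 genes, although its mice also received SCOP. A genetic difference among outbred mice and an effect of SCOP cannot be told apart here.

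**Figure D5:**
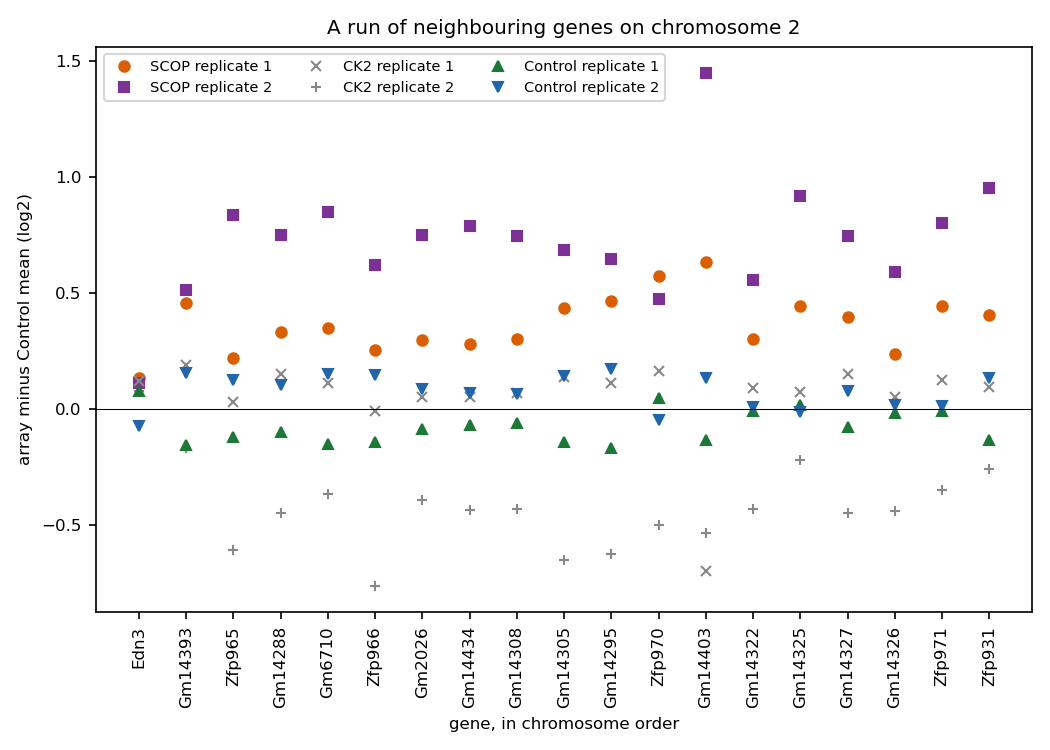
Difference of each array from the Control mean (log2, vertical axis) for the 19 neighbouring genes of the run on chromosome 2, in RefSeq order. Both SCOP symbols lie above both Control symbols for every gene of the run, by which it was defined, and CK2 replicate 2 lies lowest for 17 genes.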

How the data were processed

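Brain RNA was hybridised to 6 one-colour arrays, and log2 values were deposited by the authors for each probe set. The submitters' processing notes name RMA, and no source gives its version. RMA corrects background, normalizes and summarises probes, so differences in total RNA cannot be read. Of 22206 transcript probe sets, 19572 had 1 gene symbol in the platform annotation, 0 several and 2634 none. The probe set with the highest mean was kept for 55 genes with several, and no values were normalized again. limma 3.58.1 in R 4.3.3 was fitted to all 6 arrays by group (3 residual and 5.08 prior degrees of freedom), tested on simulated data, with Benjamini-Hochberg adjustment over 19505 genes. The 15 genes per direction with the largest shared difference were named (predicted genes excepted), with marked list members and members meeting the 1.3-fold rule or lying beyond both Control arrays, and 5 genes per direction apart on 1 SCOP array. The members and lists were chosen with earlier results of these data known. List counts were described and not tested. The number of arrays limits precision. Promoter sequences were not used here. Alternatives were other normalizations, a filter on dim genes, averaged probe sets, other limma options, a replicate block, other folds, all probe sets, the methods' t-test and leaving out each array. Those for list counts and for the rule without a background condition were added after the values were seen. Replicate numbers did not pair the samples.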

Additional observations from a re-analysis of the deposited data

Results flagged for a closer look

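Signal outside the main measurement stood out in 2 kinds of data. The background control probe sets with 16 or more G or C bases, which match no mouse transcript, averaged 6.10 on SCOP replicate 2, against 4.99 to 5.19 on the other 5 arrays. Among 2634 transcript probe sets with no symbol in the annotation used here, 5 met the 1.5-fold rule as higher on both SCOP arrays and 0 as lower. Among the 19505 genes these were 6 (0.0308%) and 13 (0.0666%). The one with the largest shared difference was TC0500001031.mm.2, with 5.83 and 6.11 in SCOP, against 5.03 and 4.62 in Control. Its smaller difference from the Control mean was 1.003 on the log2 scale. Probe set TC0Y00000223.mm.2 had 9.56 and 9.50 in SCOP, against 8.27 and 8.96 in Control. The CK2 arrays, also from mice given SCOP, lay far apart, with 8.07 and 9.50 for TC0Y00000223.mm.2 and 5.69 and 4.67 for TC0500001031.mm.2.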

How the results depend on the processing

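limma found 0 genes with an adjusted p under 0.05 under every alternative that was run except without SCOP replicate 1. That fit gave 3137, with SCOP replicate 2 as the lone SCOP array, assumed to vary like the other groups. Leaving out an array gave 0 to 3137 genes at the adjusted threshold, 152 to 3013 higher and 100 to 3718 lower genes at an unadjusted p under 0.05, and 18 to 640 higher and 19 to 2334 lower genes by the 1.5-fold rule. At an unadjusted p under 0.05, higher and lower genes numbered 68 and 106 with dim genes filtered (fewer genes tested), 167 and 124 with array weights by group, and 214 and 93 with only the SCOP and Control arrays (fewer samples). Lower genes numbered 318 with medians centred and 319 with cyclic loess, and the cause was not tested. By the rule of size, higher and lower genes were 2 and 20 with medians centred, 64 and 59 at 1.3-fold, 0 and 0 at 2-fold, and 86 and 37 with no requirement on the level. All 13 lower genes and 2 of the 6 higher genes met the rule with medians centred, and 12 and 3 with quantile normalization. The count of immediate early genes below both Control arrays was 20 to 39 over all settings, which differ in their base. The 20 came with dim genes filtered (against 17.4% of the genes left) and the 39 without SCOP replicate 1 (against 39.7% of all genes). With the replicate number as a block, 398 higher and 238 lower genes had an unadjusted p under 0.05 and 0 passed adjustment, and same-numbered SCOP and Control arrays did not deviate together (correlation 0.024), so the numbers were not used as pairs. Over the alternatives the median change of 30 of 42 lists took the opposite sign at least once. For the 17 genes named by the 1.5-fold rule no alternative turned the direction. When an array is left out this is fixed by the rule, which asks both SCOP arrays to lie beyond both Control arrays.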

Other observations

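Markers of brain regions give a further account of these samples. Of 11 measured cerebellar neuron genes, 3 lay above both Control arrays (27.3%, against 15% of all genes) and 0 below both (against 13.3%). Their median was 0.13 on SCOP replicate 1, with 1 member below 0, and -0.05 on SCOP replicate 2, with 6 below 0. The median log2 change of 0.12 was -0.09 without Control replicate 2. Pcp2 of Purkinje cells had 9.65 and 9.42 in SCOP, against 9.39 and 9.14 in Control, Cbln3 of granule cells had 7.81 and 7.85 in SCOP, against 7.73 and 7.63 in Control, and Car8 of Purkinje cells had 9.15 and 9.30 in SCOP, against 9.05 and 8.55 in Control. Of 9 measured thalamic neuron genes, 4 lay below both Control arrays (44.4%, against 13.3% of all genes) and 0 above both (against 15%), with medians of -0.08 on SCOP replicate 1 and -0.67 on SCOP replicate 2. Tcf7l2, a transcription factor of thalamic neurons, had 9.09 and 7.50 in SCOP, against 9.15 and 9.19 in Control. Choroid plexus genes varied within groups: Ttr, the thyroid hormone carrier, had 11.31 and 10.27 in SCOP, against 10.56 and 11.19 in Control.

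Of 22 measured genes of inhibitory neurons and neuropeptides, 6 lay below both Control arrays (27.3%, against 13.3% of all genes) and 2 above both (9.09%, against 15%). Their median was -0.05 on SCOP replicate 1 and -0.51 on SCOP replicate 2. Sst, somatostatin, had 10.04 and 9.40 in SCOP, against 10.23 and 10.40 in Control, and Npy, neuropeptide Y, had 7.23 and 6.29 in SCOP, against 7.42 and 7.48 in Control. Calb2, calretinin, had 8.48 and 8.40 in SCOP, against 9.03 and 8.73 in Control. Pvalb, parvalbumin of fast-spiking cells, lay the other way, with 8.41 and 8.80 in SCOP, against 8.38 and 8.33 in Control. Of the 22 genes, 2 were lower at an unadjusted p under 0.05 in limma (against 1.06% of all genes) and 0 passed adjustment.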
